A study of Homo sapiens with 6 samples.

Results

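The NRF2 oxidant response was examined in K562 cells, an established human leukemia line with erythroid features, through 9 genes of 19775 named on the array by a probe set that names 1 gene. Every probe set whose annotation names 1 of them was taken. They are NFE2L2, which encodes the transcription factor NRF2, its inhibitor KEAP1, and NQO1, NQO2, HMOX1, TXNRD1, SRXN1, GCLC and GCLM, which encode oxidant-handling enzymes. A probe set is a group of short oligonucleotides that reads the transcripts of a gene, and 20 of the 54675 probe sets name 1 of these genes. Of the 20, 15 passed the filter on low values and were tested, 5 did not, and HMOX1 had no tested probe set.

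Resistant and parental K562 cells were compared, 3 arrays of each. Resistant cells had been selected stepwise in the drug methotrexate, an antifolate that blocks dihydrofolate reductase, and were grown in a selective medium that lacks glycine, hypoxanthine and thymidine, with dialyzed serum. Parental cells were sensitive to it and were grown in Ham's F12 medium with fetal bovine serum. Any difference below may therefore belong to resistance, to the selection in methotrexate, to the medium or to the serum, which cannot be told apart. Whether the arrays of a group came from separate cultures is not given in the labels, and p-values measure only the spread between these arrays, which may be technical.

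NRF2 is a transcription factor that KEAP1 holds in the cytoplasm and passes to a CUL3 ubiquitin ligase for degradation. Oxidants and electrophiles modify cysteines of KEAP1, NRF2 then accumulates, pairs with a small MAF protein and binds the antioxidant response element (ARE) near genes for quinone reduction, glutathione synthesis and thioredoxin recycling. Much of this control acts on the NRF2 protein, which an expression array does not measure. Dihydrofolate reductase, the target of methotrexate, uses NADPH, a reductant on which NQO1 and TXNRD1 also draw.

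None of the 15 tested probe sets of the 9 genes was called between resistant and parental cells, where a call is an adjusted p under 0.05 by limma with a fold of at least 2. Over the whole array 2.33% of tested probe sets were called, 319 with a higher level in resistant cells and 303 with a lower one. KEAP1 had the smallest adjusted p, with a level 1.52-fold that of parental cells and an adjusted p of 0.219. NFE2L2, SRXN1, GCLC, GCLM and TXNRD1 each had a fold between 0.841 and 1.30 at their brightest probe set. NQO1 and NQO2 varied widely among the parental arrays, where parental array 1 lay above the other 2 in all 4 of their tested probe sets.

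The sequence through which NRF2 acts was searched for in the promoters of the 9 genes because the ARE is what these genes are known to share. Windows of 300 bases, 250 before and 50 after an annotated start, were taken from RefSeq (GRCh38.p14). They matched 8 of the 9 genes in 11 windows, all but HMOX1. The core TGACNNNGC was looked for on both strands. It was present in 4 of the 11 windows, in KEAP1, TXNRD1 and GCLM, and in 13.3% of 35116 promoter windows of the same length. The AP-1 motif TGANTCA was in 0 of the 11 windows and in 7.71% of all windows. A core match is a description of these letters and not a measured site, and the other 5 genes lack only this core within this window.

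The matches are shown with 20 bases on each side, along the strand of the gene from 5′ to 3′, with the core in capitals. A core that begins with GC lies on the reverse strand.
KEAP1, chr19:10502797-10502845, minus strand: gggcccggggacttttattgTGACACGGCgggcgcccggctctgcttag
KEAP1, chr19:10502774-10502822, minus strand: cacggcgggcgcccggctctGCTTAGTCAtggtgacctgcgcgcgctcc
TXNRD1, chr12:104215660-104215708, plus strand: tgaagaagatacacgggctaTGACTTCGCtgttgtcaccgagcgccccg
TXNRD1, chr12:104215751-104215799, plus strand: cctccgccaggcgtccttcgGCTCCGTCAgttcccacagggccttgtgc
TXNRD1, other start, chr12:104286910-104286958, plus strand: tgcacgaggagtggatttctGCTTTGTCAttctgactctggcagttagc
GCLM, chr1:93909436-93909484, minus strand: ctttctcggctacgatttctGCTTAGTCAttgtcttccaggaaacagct
The cores began 54 and 31 bases before the KEAP1 start, 99 and 8 bases before the first TXNRD1 start, 102 bases before the other TXNRD1 start and 34 bases before the GCLM start. The second KEAP1 core and the GCLM core had the same letters, GCTTAGTCA.

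**Figure D1:**
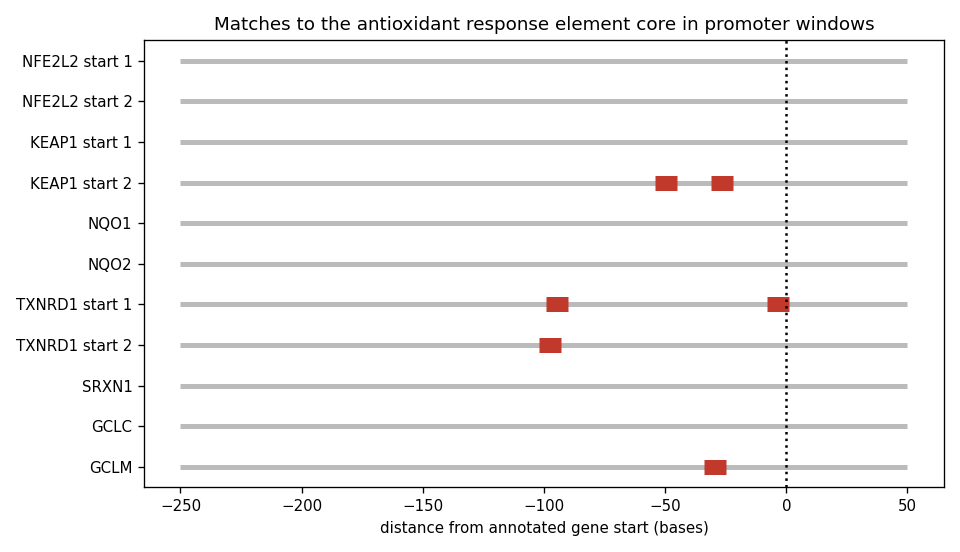
Positions of the ARE core in the promoter windows of 8 genes, with the distance from the annotated start in bases on the horizontal axis and 1 gray bar per window. Red blocks mark matches on either strand, and they stand in 4 of the 11 windows, 1 of KEAP1, both of TXNRD1 and that of GCLM.

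Levels are given as multiples of the median signal of each array, which was 12.3, 12.5 and 10.2 in resistant arrays 1 to 3 and 14.3, 13.1 and 12.7 in parental arrays 1 to 3. A level under 1 lies in the range of background. Parental array 1 stood apart: its Spearman correlation with the other parental arrays was 0.889 and 0.899, while those 2 arrays correlated at 0.969 and the resistant arrays at 0.941 to 0.968. Values without it are given for some of the results that it moved. Over all tested probe sets, 10.2% were at least 2-fold higher in parental array 1 than the mean of the other parental arrays. Of 13 erythroid markers fixed for the labelled cell type, 8 were tested, and their summed level was 1138 to 1361 in resistant cells and 1696 to 1778 in parental cells, with HBE1, embryonic epsilon globin, called lower. HBE1 alone made this difference in the sums. Those of the other 7 were 1064 to 1288 in resistant and 1082 to 1217 in parental cells. HBZ, at 551 to 714 over the 6 arrays, made a large part of them. Of the 8 markers, 5 had a negative and 3 a positive log2 difference, with a median of -0.29. Summed levels of the 2 tested lymphoid markers were 2.07 to 2.30 in resistant and 33.2 to 50.9 in parental cells, those of the 2 tested myeloid markers 11.5 to 23.1 in resistant and 45.5 to 64.2 in parental cells, and those of the 2 tested fibroblast markers 2.74 to 6.87 in resistant and 4.69 to 5.35 in parental cells. CD3D, a lymphoid marker, had 0.0784 to 2.14 in resistant and 31.9 to 50.3 in parental cells (adjusted p = 0.0514 by limma, not called). CD79A, the other tested lymphoid marker, had 0.160 to 1.99 in resistant and 0.552 to 1.33 in parental cells. CD3D therefore made nearly all of the parental lymphoid sum. LYZ, a myeloid marker, had 10.1 to 21.4 in resistant and 42.1 to 61.0 in parental cells (adjusted p = 0.0659 by limma, not called). CSF3R, the other tested myeloid marker, had 1.41 to 2.55 in resistant and 3.24 to 3.55 in parental cells (adjusted p = 0.164 by limma, not called). The lymphoid markers CD2 and MS4A1 and the myeloid markers CD14 and MPO were below the array median on all 6 arrays. Other untested markers, CD3E and CD79B (lymphoid) and CSF1R, S100A8 and S100A9 (myeloid), exceeded it on some arrays, at up to 1.89. The part of these differences in the values below was not tested.

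NFE2L2 itself was expressed well above the array median in both groups. Its brightest probe set, 201146_at, had 62.6, 53.0 and 74.7 array medians in resistant arrays 1 to 3, against 56.0, 59.3 and 51.2 in parental arrays 1 to 3. The groups overlapped, since resistant array 2 lay below parental arrays 1 and 2. The log2 difference, resistant minus parental, was 0.18 (SE 0.22, 95% interval -0.35 to 0.71, adjusted p = 0.703 by limma), and it was -0.019 when the signals were compared as deposited, without division by the array median. On that scale all tested probe sets had a median log2 difference of -0.17, where the division gave 0.03.

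NFE2L2 had 3 other probe sets, of which 2 were tested. Probe set 1567013_at had 3.97, 3.29 and 1.25 array medians in resistant cells and 1.40, 2.82 and 2.60 in parental cells (log2 difference 0.22, adjusted p = 0.850). Probe set 1567014_s_at, which also names CSNK2A1, a casein kinase subunit, had 8.86, 5.91 and 6.35 in resistant cells and 4.34, 10.3 and 8.75 in parental cells (log2 difference -0.08, adjusted p = 0.934). Both overlapped between the groups. Without parental array 1 the log2 difference was -0.10 at 1567013_at, a change of sign, and -0.46 at 1567014_s_at (adjusted p = 0.935 and 0.383 by limma). Probe set 1567015_at lay between 0.0488 and 0.471 in resistant cells and between 0.0350 and 0.441 in parental cells, below the filter.

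KEAP1, the adaptor that marks NRF2 for degradation, was read by the single probe set 202417_at. It had 41.9, 32.01 and 36.0 array medians in resistant arrays 1 to 3 (mean 36.6 ± 4.98, SD, n = 3) and 21.0, 27.3 and 24.2 in parental arrays 1 to 3 (24.2 ± 3.12, SD, n = 3). Every resistant array lay above every parental array. The log2 difference was 0.60 (SE 0.22, 95% interval 0.07 to 1.13), a fold of 1.52 with an interval of 1.05 to 2.19, and it failed the adjustment (adjusted p = 0.219 by limma). It was the 1 tested probe set among those of the 9 genes with an unadjusted p under 0.05, which 18.7% of all tested probe sets had. Without parental array 1, the lowest of the parental values, the log2 difference was 0.50 with an adjusted p of 0.271.

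**Figure D2:**
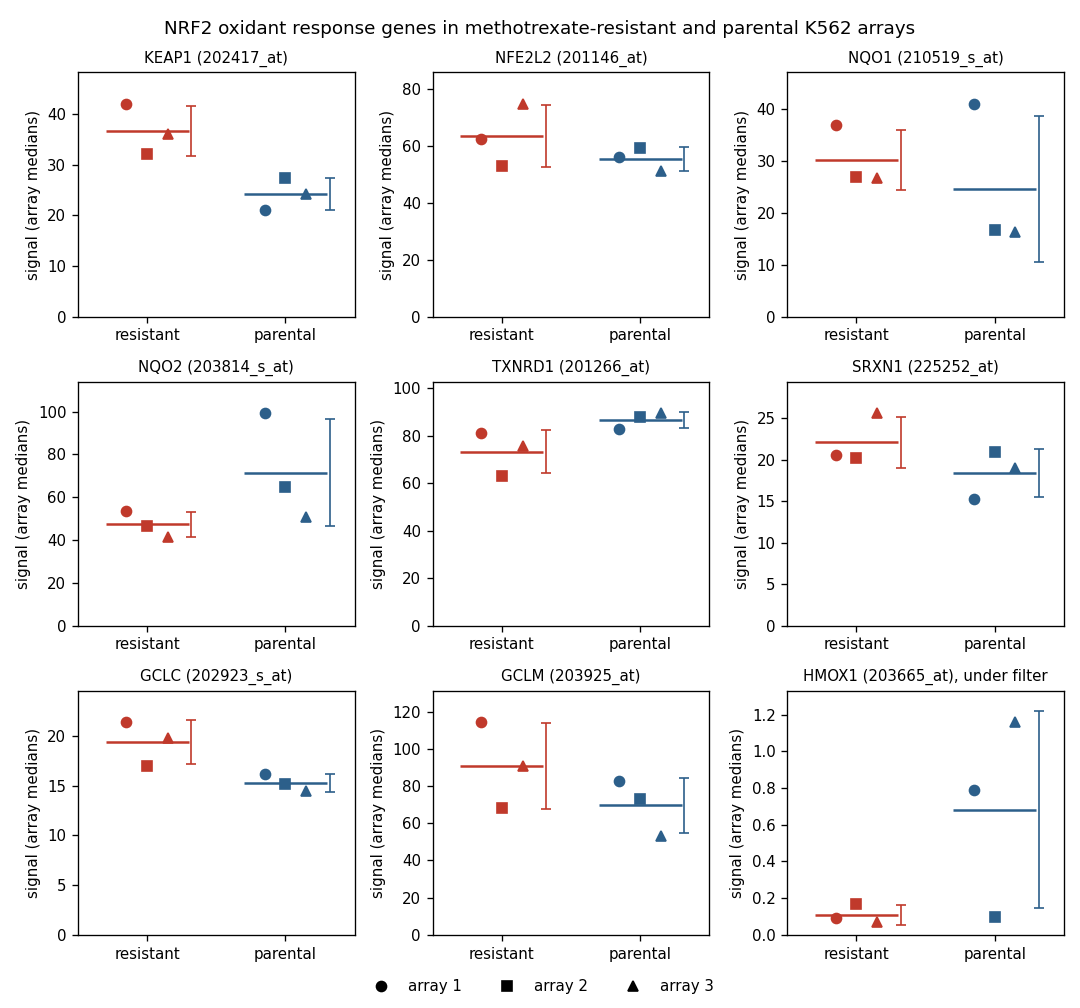
Level of each of the 9 genes at its brightest probe set on each array, as multiples of the array median, with resistant arrays in red and parental arrays in blue. Horizontal lines are means and brackets SDs over 3 arrays, and each panel has its own axis from 0. Shapes give the array number, which was not taken to pair the groups. KEAP1 and GCLC show resistant arrays above all parental arrays, TXNRD1 shows them below, and parental array 1 is the highest in NQO1 and NQO2.

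The quinone reductases had a wide spread. NQO1, which reduces quinones with NADH or NADPH without a semiquinone intermediate, had 36.9, 26.9 and 26.8 array medians in resistant arrays 1 to 3 at 210519_s_at, against 41.0, 16.8 and 16.2 in parental arrays 1 to 3. Parental array 1 was the highest of the 6 arrays and the other parental arrays were the lowest, so the groups overlapped. The log2 difference was 0.42 (SE 0.41, 95% interval -0.56 to 1.39, adjusted p = 0.621). Without parental array 1 it was 0.85, a fold of 1.81, with an adjusted p of 0.125.

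At 201468_s_at, NQO1 had 14.5, 18.6 and 27.4 array medians in resistant cells and 17.1, 9.67 and 8.41 in parental cells. Its log2 difference of 0.80 (SE 0.37, 95% interval -0.09 to 1.69, adjusted p = 0.311) was the largest among the 15 tested probe sets, and 20.9% of all tested probe sets differed by more in either direction. Without parental array 1 it was 1.11, a fold of 2.16 (adjusted p = 0.128). At 201467_s_at, NQO1 had 7.91, 4.85 and 2.95 in resistant cells and 11.9, 4.78 and 4.14 in parental cells. There the log2 difference was -0.35 (SE 0.52, adjusted p = 0.759), and 0.12 without parental array 1, so the 3 probe sets did not share a sign over all arrays.

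Parental array 1 was 2.48-, 1.90- and 2.67-fold above the mean of the other parental arrays at 210519_s_at, 201468_s_at and 201467_s_at. In all, 2 of the 15 tested probe sets of the 9 genes, both of NQO1, were at least 2-fold higher there. Of 7 tested epithelial markers, 3 passed the filter only through parental array 1. The other 4, KRT8, KRT18, KRT19 and ELF3, were all above the other parental arrays in parental array 1, by a median of 1.23 on the log2 scale. The summed level of these 4 was 305, 247 and 221 array medians in resistant arrays 1 to 3 and 606, 330 and 266 in parental arrays 1 to 3. KRT8, a keratin, had 166 on parental array 1 and 79.2 and 64.0 on the other parental arrays. The part of these markers in the NQO1 values was not tested.

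NQO2, a relative of NQO1 that uses dihydronicotinamide riboside, lay in the other direction. Its probe set 203814_s_at had 53.7, 46.6 and 41.7 array medians in resistant arrays 1 to 3, against 99.2, 64.7 and 50.6 in parental arrays 1 to 3. Only parental array 3 fell within the resistant range. The log2 difference was -0.55 (SE 0.30, 95% interval -1.27 to 0.17, adjusted p = 0.384), the lowest of the 15, and it was -0.28 without parental array 1, which was 1.73-fold above the mean of the other parental arrays. Probe set 237870_at had 1.42, 0.0480 and 0.147 in resistant cells and 0.937, 0.145 and 0.173 in parental cells and was not tested.

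Thioredoxin reductase 1, the selenoenzyme that TXNRD1 encodes, returns oxidized thioredoxin to its dithiol form with NADPH. At 201266_at it had 81.1, 63.2 and 75.9 array medians in resistant arrays 1 to 3 and 83.1, 88.1 and 89.5 in parental arrays 1 to 3. Each resistant array lay below each parental array, by a small margin. The log2 difference was -0.25 (SE 0.21, 95% interval -0.74 to 0.24), a fold of 0.841 (adjusted p = 0.557). Probe set 1561080_at lay between 0.0960 and 0.706 in resistant cells and between 0.0350 and 0.520 in parental cells, below the filter. The gene carried ARE cores in both windows shown above.

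SRXN1 encodes sulfiredoxin, which restores overoxidized peroxiredoxins. Its probe set 225252_at had 20.5, 20.2 and 25.6 array medians in resistant cells and 15.3, 20.9 and 19.0 in parental cells. The ranges overlapped, and the log2 difference was 0.27 (SE 0.23, 95% interval -0.29 to 0.82, adjusted p = 0.576).

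The subunits of glutamate-cysteine ligase, the first and rate-limiting enzyme of glutathione synthesis, were both positive in log2 difference at each tested probe set, and none was called. The catalytic subunit GCLC had 21.4, 17.0 and 19.8 array medians in resistant arrays 1 to 3 at 202923_s_at, against 16.2, 15.2 and 14.5 in parental arrays 1 to 3. The groups did not overlap, and the log2 difference was 0.34 (SE 0.20, 95% interval -0.15 to 0.83, adjusted p = 0.426). At 202922_at GCLC had 8.26, 7.53 and 9.30 in resistant cells and 5.97, 7.27 and 7.58 in parental cells, with an overlap of resistant array 2 and parental array 3 (log2 difference 0.27, adjusted p = 0.537). Probe set 1555330_at had 0.732, 0.648 and 0.235 in resistant cells and 0.692, 1.04 and 0.732 in parental cells and was not tested.

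The modifier subunit GCLM, which raises the affinity of the enzyme for glutamate, gave 114, 68.0 and 90.7 array medians in resistant arrays 1 to 3 at 203925_at, against 82.8, 72.9 and 53.4 in parental arrays 1 to 3. Resistant array 2 lay below parental arrays 1 and 2. The log2 difference was 0.38 (SE 0.29, 95% interval -0.32 to 1.07, adjusted p = 0.528). At 234986_at GCLM had 19.5, 13.8 and 19.6 in resistant cells and 11.9, 15.1 and 10.8 in parental cells (log2 difference 0.48, adjusted p = 0.366). At 236140_at it had 37.0, 32.9 and 25.4 in resistant cells and 24.6, 36.2 and 20.3 in parental cells (log2 difference 0.26, adjusted p = 0.676). The 3 probe sets had the same sign, and in each of them the groups overlapped.

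HMOX1, which encodes heme oxygenase 1 and opens the heme ring to biliverdin, iron and carbon monoxide, was at background. Its single probe set 203665_at had 0.0894, 0.168 and 0.0686 array medians in resistant cells and 0.790, 0.0992 and 1.16 in parental cells. Parental array 3 alone exceeded the array median. No fold is given between values in this range.

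Over the 15 tested probe sets of the 9 genes, 11 had a positive and 4 a negative log2 difference, with a median of 0.27 against 0.03 over all tested probe sets. The 15 read only 8 genes, so these counts are not of independent values. With signals as deposited, 10 were positive and 5 negative. The resistant arrays lay above all parental arrays in 2 of the 15 (13.3%), KEAP1 and GCLC at 202923_s_at, while 14.9% of all tested probe sets did so. They lay below in 1 (6.67%), TXNRD1, against 12.3% of all. In 7 of the 15 the 95% interval of the fold stayed between 0.5 and 2. Standard errors were 0.205 to 0.524 on the log2 scale, against a median of 0.308 over all tested probe sets, and the smallest difference that was called anywhere on the array was 1.04. Without parental array 1, 0 of the 15 were called by limma and 2, both of NQO1, had an unadjusted p under 0.05, while over all tested probe sets 4.06% were called and 22.0% had such a p. The methods' t-test gave 0 calls and an unadjusted p under 0.05 for 2 of the 15, which 17.4% of all tested probe sets had.

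**Figure D3:**
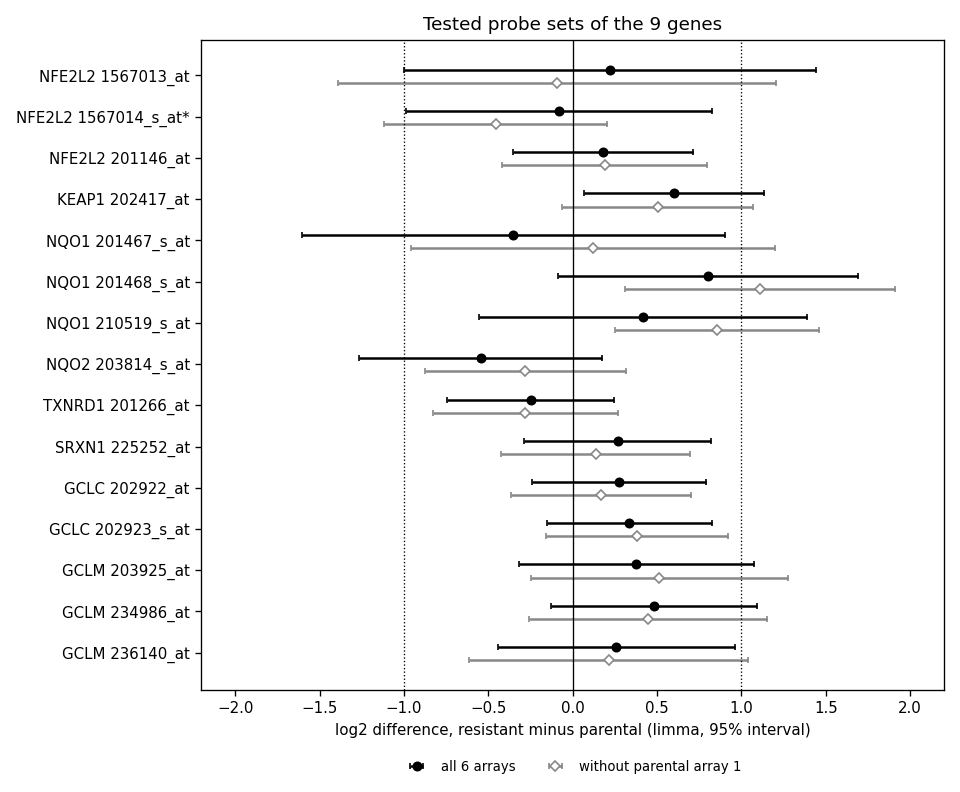
Log2 difference, resistant minus parental, with 95% intervals from limma, for the 15 tested probe sets, over all 6 arrays in black and without parental array 1 in gray. Dotted lines mark a 2-fold difference, the asterisk marks the probe set that also names CSNK2A1, and the points over all arrays lie between -0.55 and 0.80.

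The genes whose levels followed those of NFE2L2 and KEAP1 most closely were described by Pearson's r of log2 level over the 6 arrays, across 11809 other genes. The points share their libraries and the scaling of each array, and with 6 arrays many genes reach a high r. For NFE2L2 the closest were NAA30 (r = 0.995), FBXO28 (0.988), BAG6 (0.987), LINC01126 (0.985) and TNFRSF14 (0.981), among 52 genes with r over 0.95. For KEAP1 they were MIPOL1 (0.999), LYN (0.997), KSR1 (0.995), NUDT5 (0.995) and TCOF1 (0.994), among 184 such genes.

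The wider pathway was described by 7 lists with 107 genes, of which 90 were tested, each at its brightest probe set that names 1 gene. Among them 1 was called higher and 2 lower, against 1.3% and 1.47% of all 11810 genes tested. The median log2 difference was 0.07 over the 90 genes and 0.02 over all genes.

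**Figure D4:**
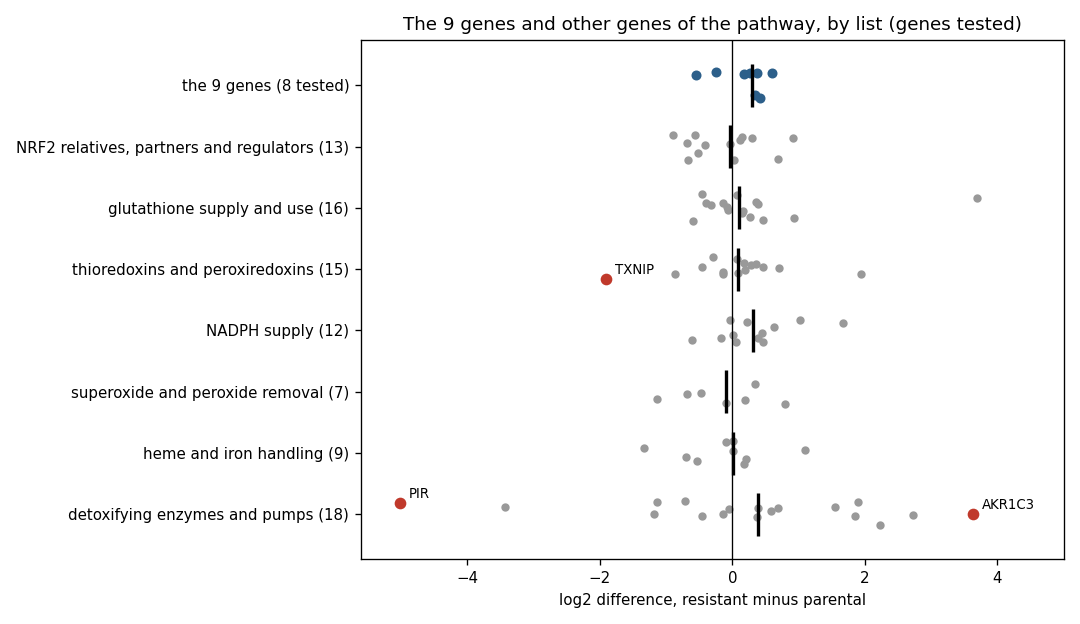
Log2 difference, resistant minus parental, of the tested genes of the 9 and of each pathway list, 1 point per gene at its brightest probe set, with black bars for medians and the number tested in brackets. Red points are the 3 called genes, PIR and TXNIP lower and AKR1C3 higher in resistant cells, and none of the 8 tested genes among the 9, in blue, is red.

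Of the relatives, partners and regulators of NRF2, 13 were tested and none was called by limma, with a median of -0.04. BTRC, the F-box protein of a ligase that degrades NRF2 independently of KEAP1, had 13.6, 12.0 and 11.4 array medians in resistant cells and 7.05, 6.32 and 6.20 in parental cells, a log2 difference of 0.92 (adjusted p = 0.0788). BACH1, a repressor that competes with NRF2 for its element, had 13.01, 10.5 and 16.2 in resistant cells and 25.4, 25.5 and 21.8 in parental cells, a log2 difference of -0.89 (adjusted p = 0.123). In both genes, named for the smallest adjusted p of the list, the groups did not overlap. Of the 13 genes, the resistant arrays lay above all parental arrays in 1 and below them in 4. Over all tested probe sets the shares were 14.9% above and 12.3% below.

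Next to GCLC and GCLM, 16 genes of glutathione supply and use were tested and none was called by limma, with a median of 0.11. SLC7A11, the cystine importer that feeds glutathione synthesis, had 30.0, 28.8 and 41.3 array medians in resistant cells and 19.2, 18.7 and 14.5 in parental cells, a log2 difference of 0.93 (adjusted p = 0.120). GPX8, a glutathione peroxidase family member of the endoplasmic reticulum, had 12.8, 11.8 and 10.5 in resistant cells and 5.83, 1.08 and 0.118 in parental cells, a log2 difference of 3.68 (adjusted p = 0.197). The GPX8 levels of parental cells spread from background to well above it, and without parental array 1 the log2 difference was 5.03 (adjusted p = 0.0428). That size rests on parental levels of 1.08 and 0.118, near or under the array median. With levels under 1 set to 1, a setting chosen after seeing the data, the log2 difference over all arrays was 2.66.

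Among 15 tested thioredoxin and peroxiredoxin genes, 1 was called lower and none was called higher, with a median of 0.09. TXNIP, an arrestin-like protein that binds thioredoxin and limits glucose uptake, had 59.1, 53.7 and 38.8 array medians in resistant cells and 148, 216 and 200 in parental cells. It was lower by a log2 difference of -1.90 (SE 0.27, adjusted p = 0.0221). Of its 3 tested probe sets, 1 was called, with log2 differences between -2.13 and -1.90. The call was lost without parental array 2 or 3 or any 1 of the resistant arrays, with an adjusted p of up to 0.0992, and over all 16 alternatives it was kept in 8, with an adjusted p of up to 0.117.

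The 12 tested genes of NADPH supply, which serves NQO1 and TXNRD1, had a median of 0.31, and none was called by limma. ME1, malic enzyme, had 59.4, 44.9 and 59.3 array medians in resistant cells and 8.24, 25.3 and 23.3 in parental cells, a log2 difference of 1.68 (adjusted p = 0.127), and of 1.16 (adjusted p = 0.0610) without parental array 1. TKT, transketolase, had 183, 134 and 171 in resistant cells and 114, 114 and 88.8 in parental cells, a log2 difference of 0.62 (adjusted p = 0.224).

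None of 7 tested genes of superoxide and peroxide removal was called, with a median of -0.10. CAT, catalase, had 224, 192 and 230 array medians in resistant cells and 90.8, 151 and 139 in parental cells (log2 difference 0.80, adjusted p = 0.182). SOD1, the cytosolic superoxide dismutase, had 287, 257 and 215 in resistant cells and 344, 372 and 334 in parental cells (log2 difference -0.48, adjusted p = 0.294). Likewise none of 9 tested genes of heme and iron handling was called, with a median of 0.01. BLVRB, biliverdin reductase B, which acts after heme oxygenases, had 119, 92.4 and 58.8 in resistant cells and 214, 231 and 206 in parental cells (log2 difference -1.33, adjusted p = 0.0844). FTL, the ferritin light chain, had 342, 282 and 362 in resistant cells and 487, 477 and 457 in parental cells (log2 difference -0.53, adjusted p = 0.233). Among the 8 tested erythroid markers HBE1 was lower in resistant cells too, and 5 had a negative log2 difference. The sums of the markers other than HBE1 overlapped between the groups. The part of these markers in the BLVRB values was not tested.

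Of 18 tested detoxifying enzymes and pumps, 1 was called higher and 1 lower, with a median of 0.38. In all, 10 had a positive and 8 a negative log2 difference. PIR, which encodes the iron-binding nuclear protein pirin, had 1.02, 0.920 and 0.529 array medians in resistant cells and 25.4, 26.9 and 24.5 in parental cells, lower by a log2 difference of -5.01 (SE 0.30, adjusted p = 0.00160). Resistant cells were near the array median, where background begins, and with levels under 1 set to 1, a setting chosen after seeing the data, the log2 difference was -4.67. AKR1C3, an aldo-keto reductase, had 13.2, 11.8 and 9.05 in resistant cells and 1.25, 0.817 and 0.717 in parental cells, a log2 difference of 3.64 (adjusted p = 0.00332), or 3.38 with levels under 1 set to 1. The sizes of both differences are therefore less certain than their direction. AKR1C transcripts are alike in sequence, so how their probe sets divide signal is uncertain. The PIR and AKR1C3 calls held without each array in turn. Mean levels were under 1 in resistant cells for PIR (0.825) and in parental cells for AKR1C3 (0.928). PIR therefore passed the filter only through the parental arrays and AKR1C3 only through the resistant arrays. ABCC3, a drug efflux pump, was not called at its brightest probe set (log2 difference -3.43, adjusted p = 0.134). It was called lower at 1 of its 4 tested probe sets, 239217_x_at (adjusted p = 0.0112). That probe set had 0.374, 0.384 and 0.206 in resistant cells and 2.59, 3.05 and 1.80 in parental cells. Its resistant levels were in the range of background, so it passed the filter only through the parental arrays, and the size of its difference is uncertain.

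Without parental array 1, 11 of the 90 genes were called, 8 higher and 3 lower, in place of 3, and all 3 were among the 11. Over all genes in that setting, 2.53% were called higher and 2.23% lower. AKR1C1 had 215, 201 and 248 array medians in resistant cells and 135, 43.3 and 39.6 in parental arrays 1 to 3, with a log2 difference of 1.85 (adjusted p = 0.116) over all arrays and 2.41 (adjusted p = 0.00625) without parental array 1. GSTP1, a glutathione transferase, had 64.8, 48.1 and 27.1 in resistant cells and 80.0, 1.80 and 2.02 in parental arrays 1 to 3, so its log2 difference was 2.73 (adjusted p = 0.366) with all arrays and 4.53 (adjusted p = 0.00601) without parental array 1. NFE2L3, a transcription factor related to NRF2, had 5.87, 5.25 and 6.12 in resistant cells and 3.02, 14.95 and 12.4 in parental arrays 1 to 3, with a log2 difference of -0.52 (adjusted p = 0.680) over all arrays and -1.25 (adjusted p = 0.0425) without parental array 1. MSRA, AKR1C2, GSTA4, TRIM16 and GPX8 were the others called higher in that setting. Parental array 1 also had the higher epithelial sum given above, and its part in these values was not tested.

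**Figure D5:**
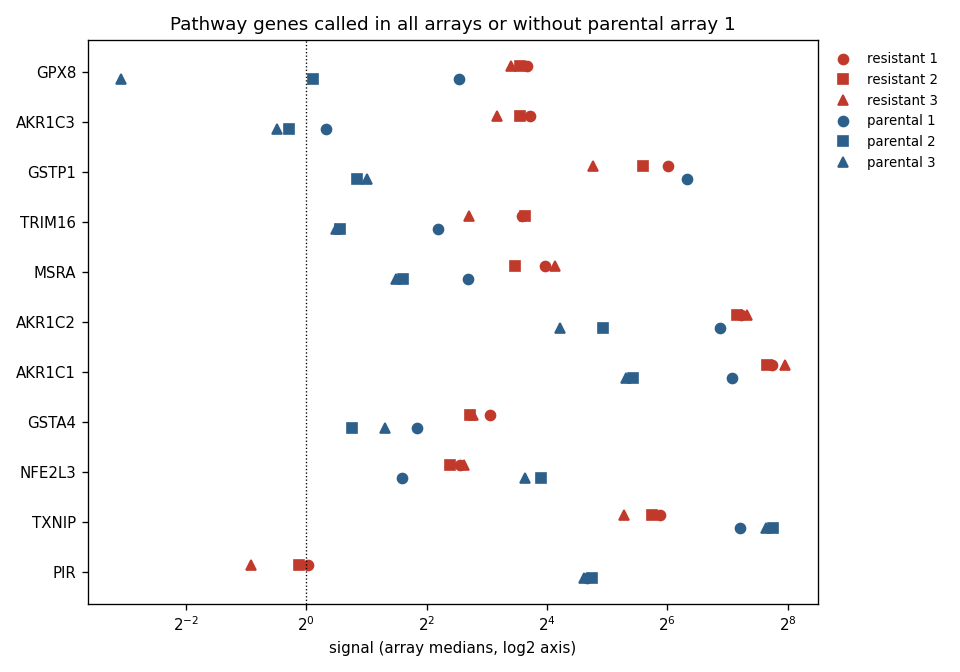
Levels of the 11 pathway genes called without parental array 1, in array medians on a log2 axis, with resistant arrays in red and parental arrays in blue and shapes for the array number. The dotted line is the array median. In GSTP1 the parental circle, array 1, stands at 80.0 beside the resistant arrays while the other parental arrays stand at 1.80 and 2.02, and in PIR all parental arrays stand together near 25.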

How the data were processed

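RNA of 3 resistant and 3 parental K562 samples had been hybridized to Affymetrix HG-U133 Plus 2.0 arrays. MAS5 (no version given) had been used by the authors to make the deposited table, which holds linear intensities. Their methods divide each array by its 50th percentile. The deposited medians differed, so each intensity was divided here by the median of its array. Levels at or under 0.01 were set to 0.01 before log2. The 62 manufacturer controls and probe sets averaging under 1 array median were left out, and 26692 were tested. The study's filter on control strength was not used, since it needs the error model of its software.

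Groups were compared by limma 3.58.1 (R 4.3.3; lmFit, eBayes, two-sided), with Benjamini-Hochberg adjustment over all tested probe sets. The fit was tested on simulated data. The number of arrays limits the precision, and depth has no meaning for arrays. Of all probe sets, 41097 named 1 gene, 1801 several and 11777 none, and 41043 of the first were matched by gene ID to the RefSeq annotation of GRCh38.p14. The brightest tested probe set of a gene represented it (11810 genes). Levels of different probe sets were summed for cell type markers and otherwise not compared.

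The 9 genes and the lists were chosen with earlier results of these data known. Every probe set of the 9 genes is given, and in each list every called gene, or the 2 with the smallest adjusted p where none was called, and for NFE2L2 and KEAP1 the 5 genes most like them. AKR1C1, GSTP1, NFE2L3, MSRA, AKR1C2, GSTA4, TRIM16, HBE1, HBZ, KRT8, KRT18, KRT19, ELF3, ABCC3, CD3D, CD79A, CD2, MS4A1, LYZ, CD14 and MPO were named after their values were seen. So were CSF3R, CD3E, CD79B, CSF1R, S100A8 and S100A9. Alternatives covered scaling, the filter on low values, pseudocounts of 0.25 and 1 array median, the variance model, the t-test named in the methods, a replicate block, each array left out in turn, and the mean over a gene's probe sets.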

Additional observations from a re-analysis of the deposited data

How the results depend on the processing

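No probe set of the 9 genes was called under any of the alternatives run. Of 136 alternative values of the 8 tested genes, each at its brightest probe set, 135 kept their direction and their side of the threshold. Alternatives that changed only the filter, the variance model, the test or the block left the log2 difference itself unchanged. Direction could not change in those, so the count of 135 overstates how far direction was tried. The exception was NFE2L2, whose log2 difference was -0.019 with values as deposited, against 0.18. Outside these values, 2 less bright probe sets changed sign without parental array 1, NFE2L2 1567013_at and NQO1 201467_s_at. KEAP1 ranged from 0.40 to 0.69 (adjusted p 0.120 to 0.532), NQO1 from 0.19 to 0.85 (0.125 to 0.877) and NQO2 from -0.77 to -0.28 (0.247 to 0.644). Over the whole array the 319 probe sets called higher became 210 with values as deposited (321 lower, so the split moved), 97 with no level filter, 599 with a pseudocount of 1, 563 when limma fitted a trend on intensity with a robust prior, 82 with the methods' t-test, and 103 to 633 when each array was left out in turn, the highest without parental array 1. The 303 called lower became 77 with no level filter, 455 and 592 with pseudocounts of 0.25 and 1, 570 with the trend and robust prior, 44 with the t-test, and 79 to 447 with each array left out. The 3 pathway genes called became 6 with a filter at 2 array medians, 5 and 11 with the pseudocounts, 8 with the trend and robust prior, and 2 to 11 with each array left out, the highest without parental array 1. The cause of these shifts was not tested. Replicate numbers gave no sign of pairing the samples, since deviations from the group means correlated at -0.00671, -0.0253 and -0.00641 for numbers 1 to 3. With so few arrays this cannot exclude a pairing. With a replicate block 133 probe sets were called higher and 136 lower, 0 of the 9 genes among them. Fold changes at levels near or under the array median are the least certain, and a difference under 2-fold could not be called by construction.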
